A study of Xenopus laevis with 20 samples.

Results

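The 4 genes described here, c1orf216.S, fbp2, pik3r5.S and vegfc.S, were detected in frog animal caps given Pax3 alone and in no cap of the other injections, including caps given Pax3 together with Zic1. Each is measured by 1 probe set, so they are 4 of the 32539 probe sets analysed. They were chosen by their measured levels in all 4 injection groups. Those levels are therefore given as a description, without a test, and tests are kept for related genes, pathway genes and chromosomal neighbours.

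The tissue was the animal cap, the prospective ectoderm of a Xenopus laevis blastula, which forms epidermis when cultured without further signals. Messenger RNA was injected into embryos of 2 cells, caps were cut at stage 9 and were cultured for 8 h with dexamethasone, and the RNA of single caps was hybridised to arrays. The 4 groups of 5 caps received Pax3GR, Zic1GR, both messages (the combination), or the glucocorticoid receptor (GR) message alone as the control. Pax3GR and Zic1GR are hormone-inducible forms of the transcription factors Pax3 and Zic1, and dexamethasone is the hormone that releases them. All groups, GR included, were kept in dexamethasone, and the labels give neither the amount of message nor a clutch. The injected message stands for the factor in tissue where it is not normally placed, which limits each group as a model of the embryo.

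Pax3 and Zic1 mark the border of the neural plate, and in frog embryos their joint activity is known to direct ectoderm to neural crest. Vascular endothelial growth factor C, the product of vegfc, is a secreted ligand of endothelial receptors, best known for the growth of lymphatic vessels. The pik3r5 product is a regulatory subunit of the class I PI3-kinase that acts below G protein-coupled receptors, best known from mammalian leukocytes. Fructose-bisphosphatase, the enzyme usually meant by fbp2, catalyses a late step of glucose synthesis and in mammals is the muscle form. No role is given here for c1orf216, a gene still named after an open reading frame.

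The identity of the probe sets was compared with a reference gene table of the assembly Xenopus_laevis_v10.1. The gene identifiers of c1orf216.S (Xl2.54039.1.S1_at), pik3r5.S (Xl2.2361.1.S1_at) and vegfc.S (Xl2.50387.1.S1_at) each matched 1 gene of the same symbol. The suffixes .L and .S mark the copies of a gene on the long and the short chromosome of each pair in this allotetraploid frog. The identifier of fbp2 (Xl2.21554.1.S1_at) had no match in that table. There the name fbp2 is an alias of fbp2.L and also of khsrp.L, khsrp.S and pcnx4.L, so the gene behind this probe set is uncertain and "fbp2" below is the name the array's annotation gives. Sequences of the genes were not analysed here.

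Values are log2 probe set intensities. A probe set counts as detected on an array at log2 4 or more, and values below that level have no order among themselves. A fold against a group that lay below log2 4 on all 5 arrays is therefore a lower bound, with the low values set to 4. Means are given ± SD with n = 5 arrays. Levels of different probe sets cannot be set against each other.

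The values of pik3r5.S are given first. On the 5 Pax3GR arrays, replicates 1 to 5, it measured 7.96, 7.78, 9.22, 10.55 and 10.30. On the combination arrays it measured 3.84, 2.52, 2.48, 2.42 and 3.27. The GR arrays lay between 2.37 and 2.41 and the Zic1GR arrays between 2.37 and 2.43. Every Pax3GR array was thus above detection and every other array below it, and the lowest Pax3GR array stood 3.95 above the highest of the 15 others, which was replicate 1 of the combination. The mean was 9.16 ± 1.28 with Pax3GR and 2.90 ± 0.63 with the combination, a difference of 6.26 and a level at least 35.8-fold higher with Pax3GR.

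For c1orf216.S the Pax3GR arrays read 7.47, 7.87, 9.35, 9.50 and 9.72 in replicate order. The combination arrays read 2.64, 3.05, 2.36, 3.45 and 2.35. Those of Zic1GR read 2.98, 2.50, 2.25, 2.71 and 2.28, while the GR arrays lay between 2.24 and 2.26. The Pax3GR arrays overlapped with no other group, and their lowest value was 4.02 above the highest of the others, the widest gap of the 4 genes. Mean levels were 8.78 ± 1.03 with Pax3GR, 2.24 ± 0.0088 with GR, 2.54 ± 0.31 with Zic1GR and 2.77 ± 0.47 with the combination. Pax3GR was at least 27.5-fold above each of the other groups.

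The ligand gene vegfc.S gave 7.03, 7.79, 8.85, 9.09 and 9.26 on the Pax3GR arrays. With the combination it gave 2.09, 3.54, 2.09, 2.54 and 2.08. All GR and Zic1GR arrays lay between 2.00 and 2.09. The combination was not uniform here, since replicate 2 was the highest array outside Pax3GR, yet it remained below detection and 3.49 below the lowest Pax3GR array. The mean was 8.40 ± 0.96 with Pax3GR and 2.47 ± 0.63 with the combination, and Pax3GR was at least 21.2-fold higher.

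The probe set named fbp2 had the narrowest gap. Its Pax3GR arrays gave 7.60, 7.34, 8.27, 8.86 and 9.11. The combination arrays gave 3.46, 2.73, 2.78, 2.65 and 2.86, and the GR arrays lay between 2.64 and 2.93. Zic1GR gave 2.58, 2.82, 2.61, 2.64 and 3.99, so that replicate 5 came just under the detection level, 3.35 below the lowest Pax3GR array. With quantile scaling or with arrays centred on their medians that array stood at 4.02 or 4.04, and fbp2 alone of the 4 genes no longer met the rule. Means were 8.24 ± 0.77 with Pax3GR, 2.93 ± 0.60 with Zic1GR and 2.90 ± 0.32 with the combination. The level with Pax3GR was at least 18.8-fold above that of every other group.

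**Figure D1:**
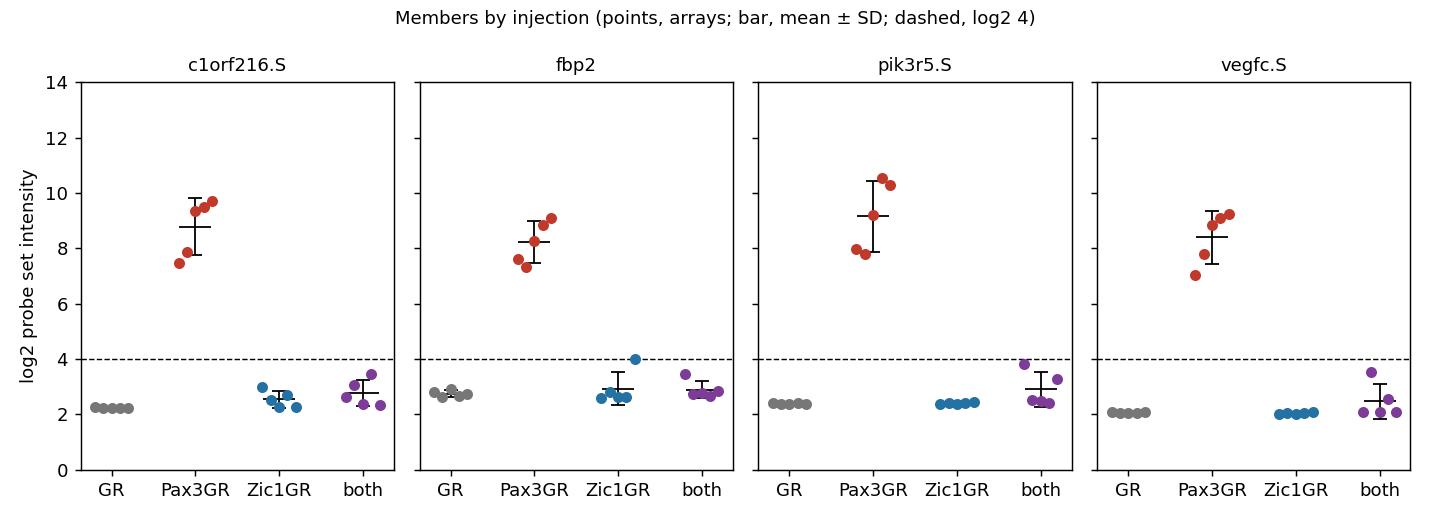
Log2 probe set intensity of c1orf216.S, fbp2, pik3r5.S and vegfc.S on each of the 20 arrays, by injection ("both" is the combination). Points are arrays, bars are the mean ± SD of 5 arrays and the dashed line is log2 4. All Pax3GR points lie between 7.03 and 10.55 and all other points below 4.

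The 4 genes did not have the same level in all Pax3GR caps. Their Pax3GR values spanned a 4.75-fold range for c1orf216.S, 3.41-fold for fbp2, 6.79-fold for pik3r5.S and 4.69-fold for vegfc.S. For all 4 genes, replicates 1 and 2 were the lowest Pax3GR arrays. The mean of replicates 1 and 2 against that of replicates 3 to 5 was 7.67 and 9.52 for c1orf216.S and 7.47 and 8.75 for fbp2. It was 7.87 and 10.02 for pik3r5.S and 7.41 and 9.07 for vegfc.S. Among the other 41 probe sets found with Pax3GR alone (below), the same 2 replicates were the lowest for 24, and among all 547 probe sets switched on with Pax3GR (below) for 230 (42.05%).

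Markers of the epidermal cells that a cap forms differed between the same arrays. The mean log2 intensity of 18 multiciliated cell probe sets was 10.19 and 7.51 on Pax3GR replicates 1 and 2, against 4.96, 5.15 and 4.90 on replicates 3 to 5. The range was 10.34 to 11.26 on the GR arrays, 6.15 to 8.94 with Zic1GR and 5.61 to 8.99 with the combination. The mean of 19 epidermis probe sets was 11.90 and 11.45 on Pax3GR replicates 1 and 2 and 10.70, 10.55 and 10.49 on replicates 3 to 5, with 12.44 to 12.86 on the GR arrays. Pax3GR replicate 1 also had the lowest mean correlation with the rest of its group of all 20 arrays, 0.953. Without that replicate the Pax3GR means were 9.11 for c1orf216.S, 8.39 for fbp2, 9.46 for pik3r5.S and 8.75 for vegfc.S. The part of the marker genes in the spread of the 4 genes was not tested. In whole explants, fewer cells that express a gene and less RNA per cell cannot be told apart.

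**Figure D2:**
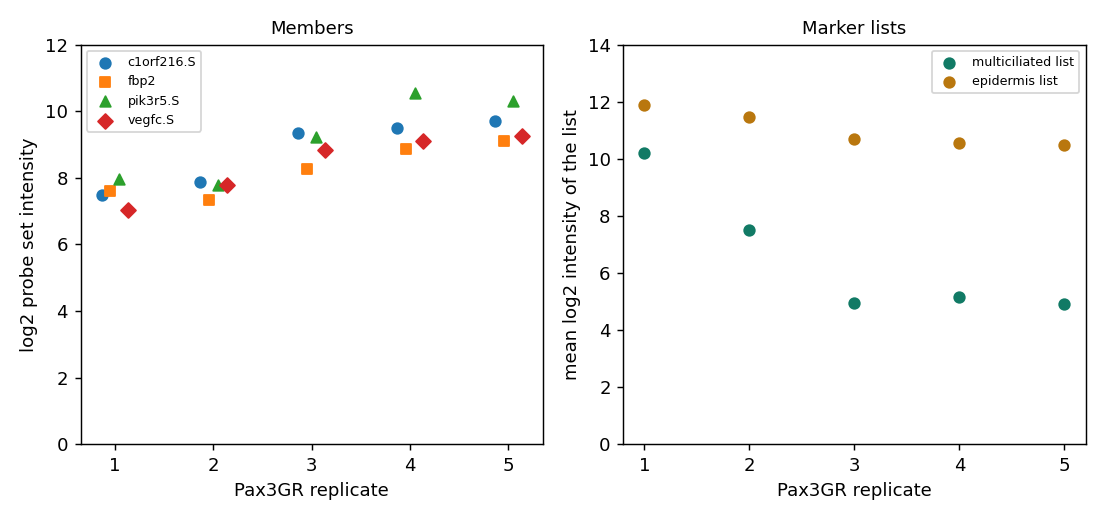
Left, log2 intensity of the 4 genes on the 5 Pax3GR arrays. Right, mean log2 intensity of the 18 multiciliated and 19 epidermis probe sets on the same arrays. Replicate numbers carry no order; replicates 1 and 2 are the lowest for all 4 genes and the highest for both marker lists.

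Probe sets of the genes pax3 and zic1 were compared between Pax3GR and the combination. Levels of pax3.S (read from Xl2.49495.3.S1_x_at) ran from 13.24 to 13.35 on the Pax3GR arrays and from 12.83 to 13.00 on the combination arrays. The groups did not overlap, with a difference of -0.35 from Pax3GR to the combination. Limma did not call it (adjusted p = 0.596), but its estimate of the spread is shared by all 4 groups. The SD was 1.14 with Zic1GR, against 0.045 with Pax3GR and 0.079 with the combination. That p-value therefore does not show equal levels in these 2 groups. Levels of zic1.S (read from Xl2.1796.1.S2_at) ran from 13.81 to 14.10 with Pax3GR alone and from 13.47 to 13.89 with the combination (limma adjusted p = 0.73). With Zic1GR alone, where Zic1 message was injected, they ran from 11.84 to 13.06, below every Pax3GR array. This probe set is thus not shown to read the injected message. The 4 genes were thus detected on arrays where zic1.S, which was not injected there, measured 13.81 or more. On the Zic1GR arrays, where no Pax3 message was injected, pax3.S measured 8.27 to 10.95 and none of the 4 genes was detected. On the GR arrays pax3.S lay between 2.29 and 2.54 and zic1.S between 6.33 and 8.35. Other pax3 probe sets differed, also within the same gene copy. For pax3.L, Xl2.45055.1.S1_at had means of 14.002 with GR, 14.14 with Pax3GR, 13.61 with Zic1GR and 13.91 with the combination. Means in the same order were 13.56, 13.75, 13.36 and 13.59 for Xl2.45266.2.S1_at and 9.45, 9.64, 8.11 and 9.05 for Xl2.54870.1.S1_at. By contrast, Xl2.45266.1.S2_at had 2.22, 12.93, 11.50 and 12.93. A further pax3.L probe set had 2.28, 7.72, 3.68 and 7.77. These probe sets do not tell injected from native transcripts where a factor was injected.

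To place the 4 genes among all that appear with Pax3, probe sets were counted that lay below log2 4 on all GR arrays and at or above it on all Pax3GR arrays. There were 547 of these switched-on probe sets. With the combination, 294 of them (53.75%) were detected on all 5 arrays, 200 (36.56%) on 1 to 4 arrays and 53 (9.69%) on none. The 4 genes belong to the last set, and with it to the smaller set of 45 that was also undetected on all Zic1GR arrays. These 45 probe sets, called Pax3-only here, were 0.138% of all 32539. The 41 other Pax3-only probe sets included 22 with exactly 1 gene symbol. The same count made for Zic1 gave 377 switched-on probe sets, 49 of them undetected with Pax3GR and with the combination, and 1 probe set was detected on all arrays of the combination and on no other.

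Absence with Zic1GR alone and absence with the combination were not the same property. Of the 222 switched-on probe sets that were undetected on all Zic1GR arrays, 45 were undetected on all combination arrays, 123 were detected on some of them and 54 on all 5. Of the 198 detected on all Zic1GR arrays, 2 were undetected with the combination and 168 were detected on all 5 arrays. The rule behind the 4 genes asked for absence in both groups, so nothing about the 4 genes is read from these counts.

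**Figure D3:**
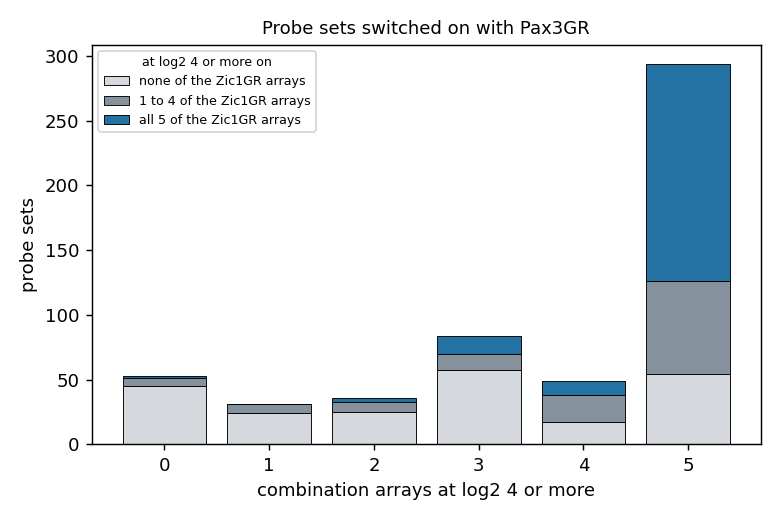
Number of switched-on probe sets (vertical axis) by how many of the 5 combination arrays detected them (horizontal axis). Shading gives how many Zic1GR arrays detected them. Of 547, 294 stand at 5 arrays and 53 at none, and 45 of those 53, the 4 genes among them, were also undetected on all Zic1GR arrays.

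Within the 45, the gap between the lowest Pax3GR array and the highest of the other 15 arrays put the 4 genes at places 5 (c1orf216.S), 6 (pik3r5.S), 8 (vegfc.S) and 9 (fbp2). That gap is made of the values the rule used and is a description of it. Other named Pax3-only probe sets are given by their own values. Among them are six6.L, an eye and forebrain homeobox gene, and slc5a8.1.L, a solute carrier. The first measured 9.61, 9.49, 10.98, 11.97 and 11.86 on the Pax3GR arrays and 1.64 to 1.84 on the Zic1GR and combination arrays, a level at least 110-fold higher. The second measured 9.13, 5.71, 11.84, 11.62 and 11.94 on the Pax3GR arrays and was at least 66.2-fold higher. Its replicate 2 was far below the rest, so a Pax3-only level could differ widely between caps.

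Further Pax3-only probe sets with a symbol had Pax3GR means of 8.62 (nes.S, an intermediate filament gene of neural progenitors), 7.69 (dkk2.L, a secreted Wnt modulator) and 7.06 (XB5957215.L). Those of flt1.L, mecom.L, myh6.S, chst2.L and tmem150b.L lay between 6.72 and 6.96. With them flt1.L, a receptor of the VEGF family, and myh6.S, a myosin heavy chain, showed the pattern that chose the 4 genes. Just inside the rule lay fbp2, whose highest value outside Pax3GR was 3.99, chst2.L, with 3.95, and sema6d.L, with 3.81 and a lowest Pax3GR array of 4.01. Just outside lay phf10.L, nrcam.L and slc38a7.L, whose lowest Pax3GR arrays were at 3.9998, 3.92 and 3.90.

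**Figure D4:**
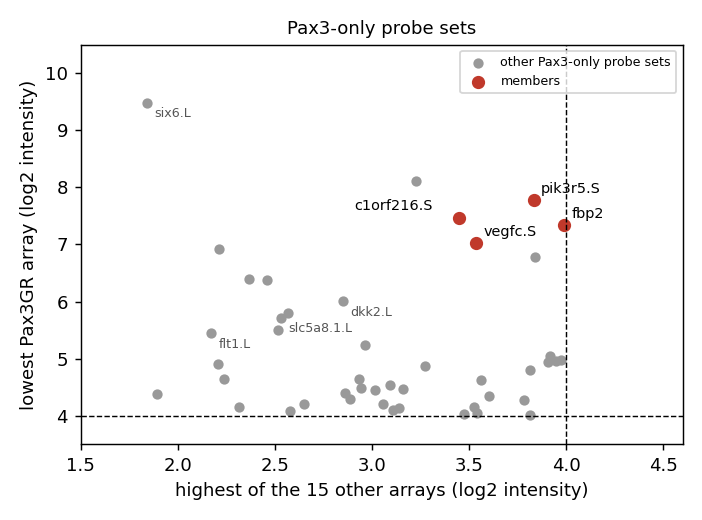
Lowest Pax3GR array (vertical axis) against the highest of the 15 other arrays (horizontal axis), log2 intensity, for the 45 Pax3-only probe sets. Dashed lines mark log2 4. The 4 genes (red) combine lowest Pax3GR values of 7.03 to 7.78 with highest other values of 3.45 to 3.99.

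The genes whose profile over the 20 arrays was most like each of the 4 were named by Pearson's r. Leaving out the 4 genes themselves, six6.L came first for all of them, with r of 0.992 for c1orf216.S, 0.991 for fbp2, 0.991 for pik3r5.S and 0.992 for vegfc.S. Second came tmem150b.L for c1orf216.S, fbp2 and pik3r5.S, at 0.988 to 0.990. The next in order was nes.S for c1orf216.S, at 0.980, and mig30.L for fbp2 and pik3r5.S. For vegfc.S the next were frzb.L, a secreted Wnt antagonist, at 0.992, and ndnf.L at 0.991, neither of which is Pax3-only. Between the 4 genes themselves r ran from 0.980 to 0.994, the highest being that of c1orf216.S with vegfc.S. All these values share the 20 arrays and are set mainly by the distance between the 5 Pax3GR arrays and the rest.

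Copies and relatives of the 4 genes were examined next, and p-values there measure the spread between single explants. The other copies c1orf216.L, pik3r5.L and vegfc.L were not analysed here, nor were pik3r6, vegfb and pgf. The relative of fbp2 with a probe set, fbp1.L, encodes fructose-bisphosphatase of liver in mammals and had no such pattern. It measured 14.15, 14.19, 14.25, 13.93 and 14.14 with GR, 14.19, 13.79, 13.08, 12.90 and 12.99 with Pax3GR, and 13.62, 13.65, 13.48, 12.78 and 13.65 with the combination. All arrays were high, and Pax3GR replicates 1 and 2 lay nearest to GR. In limma across all 20519 probe sets tested, fbp1.L fell by 0.74 with Pax3GR (adjusted p = 0.0193), by 1.09 with Zic1GR (0.00165) and by 0.69 with the combination (0.0308). The combination differed from Pax3GR by 0.05 (adjusted p = 0.94). The call for Pax3GR was lost without Pax3GR replicate 3, 4 or 5 (0.0509 to 0.0579). That for the combination was lost without GR replicate 1, 2, 3 or 5 or combination replicate 4 (0.0515 to 0.0952).

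The ligand relatives of vegfc.S were low in most caps. The vegfa.L probe set and 2 of the 3 vegfd.L probe sets lay below log2 4 on all 20 arrays. The remaining vegfd.L probe set, Xl2.55367.1.A1_at, measured 2.36 to 3.32 with Pax3GR and 6.62, 3.69, 6.47, 7.06 and 2.92 with Zic1GR. It rose by 2.10 with Zic1GR (limma adjusted p = 0.0298), a call lost when replicate 1, 3 or 4 of either GR or Zic1GR was left out (0.0595 to 0.089). It was not called between the combination and Pax3GR (difference 1.19, adjusted p = 0.366). Of 4 probe sets of khsrp.L, khsrp.S and pcnx4.L, which share the alias fbp2, 3 were high in all groups and 1 of khsrp.L was below log2 4 on all 20 arrays. Limma called none of the 3 in the 4 comparisons, and 1 had an unadjusted p under 0.05 for Pax3GR against GR and for the combination against Pax3GR.

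Pathway genes were read from 3 lists, around VEGF-C and PDGF, around the PI3-kinase and around fructose phosphate metabolism. Calls over all probe sets tested give the background. With Pax3GR 27.3% of the 20519 rose against GR and 23% fell. With Zic1GR 28.6% rose and 22.8% fell, and with the combination 24.6% rose and 20.3% fell. Between the combination and Pax3GR, 4.28% were higher and 5.98% lower with the combination. That last count is the one most open to single arrays, falling to 1226 probe sets in all without Pax3GR replicate 4 and to 1272, 1373 and 1401 without Pax3GR replicate 5, combination replicate 3 and combination replicate 5, from 2106.

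Among VEGF and PDGF ligands, receptors and processing enzymes, 17 gene copies had a probe set. Leaving out flt1.L, which is Pax3-only and passed the filter through its Pax3GR arrays alone, 9 were tested. With Pax3GR 4 rose and 4 fell, with Zic1GR 5 and 4, and with the combination 4 and 4. Between the combination and Pax3GR 1 rose and 1 fell. The median difference there was 0.36, against 0.0081 for all probe sets tested. For flt1.L only a description is given. It read 7.46, 7.07, 7.81, 7.03 and 5.44 with Pax3GR and 2.05 to 2.17 on all 15 other arrays, at least 7.79-fold lower there. The flt1.S probe set was below log2 4 on all 20 arrays. The receptors kdr and flt4, to which VEGF-C binds, and its activators ccbe1 and adamts3 were not analysed here.

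The neuropilins, co-receptors for VEGF and semaphorins, were named after their values were seen. With GR nrp1.L read 1.89 to 1.99, and 10.37, 10.12, 9.82, 9.40 and 9.25 with Pax3GR. The combination arrays gave 10.33, 11.11, 9.04, 10.94 and 8.06 and overlapped with Pax3GR. It was at least 55.5-fold above GR with Pax3GR and at least 59.6-fold with the combination (limma adjusted p = 5.89e-10 and 5.85e-10), and the combination differed from Pax3GR by 0.10 (adjusted p = 0.932). Likewise nrp2.S was at least 15.7-fold and 23.3-fold above GR in the same groups (6.66e-06 and 3.11e-06), and its difference of 0.57 between them was not called (adjusted p = 0.687). Both were also detected on all 5 arrays of Zic1GR alone, where nrp1.L was at least 28.3-fold above GR (5.16e-09) and nrp2.S at least 4.59-fold (0.000375). The rule that chose vegfc.S required it to be undetected there and with the combination.

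Of 3 PDGF genes tested, pdgfra.L and pdgfa.S changed between the combination and Pax3GR, while pdgfb.S was not called (difference -0.27, adjusted p = 0.859). The receptor gene pdgfra.L measured 8.34, 10.12, 9.45, 7.53 and 7.33 with Pax3GR and 11.51, 11.24, 11.85, 12.19 and 11.83 with the combination. All combination arrays were above all Pax3GR arrays, a rise of 3.17 (limma adjusted p = 0.00101). The ligand gene pdgfa.S read 6.29, 6.52, 8.52, 9.94 and 9.68 with Pax3GR and 6.92, 6.33, 2.17, 3.60 and 5.31 with the combination. The groups overlapped, and the fall of 3.32 (adjusted p = 0.0192) was lost without Pax3GR replicate 4 or 5 or combination replicate 3 (0.0564 to 0.0646). Against GR, pdgfa.S fell by 3.06 with Pax3GR (0.00657).

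The processing enzymes, proprotein convertases of the furin family, are known to cleave VEGF-C in mammals. Those given here were chosen after their values were seen. The furin.L probe set fell by 2.57 with Pax3GR (limma adjusted p = 0.000622) and pcsk7.L by 1.66 (4.73e-05), while pcsk5.L rose by 2.09 (7.86e-05). None of the 3 was called between the combination and Pax3GR, with differences of 0.45, 0.36 and -0.02 (adjusted p = 0.661, 0.426 and 0.984). The other copy, pcsk5.S, came near the pattern of the 4 genes. It read 6.53, 5.36, 2.83, 5.88 and 5.99 on the Pax3GR arrays and 2.13 to 2.63 on the other 15. Pax3GR replicate 3 was below detection, so pcsk5.S is not Pax3-only, and at 4 arrays it did not enter the tests.

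**Figure D5:**
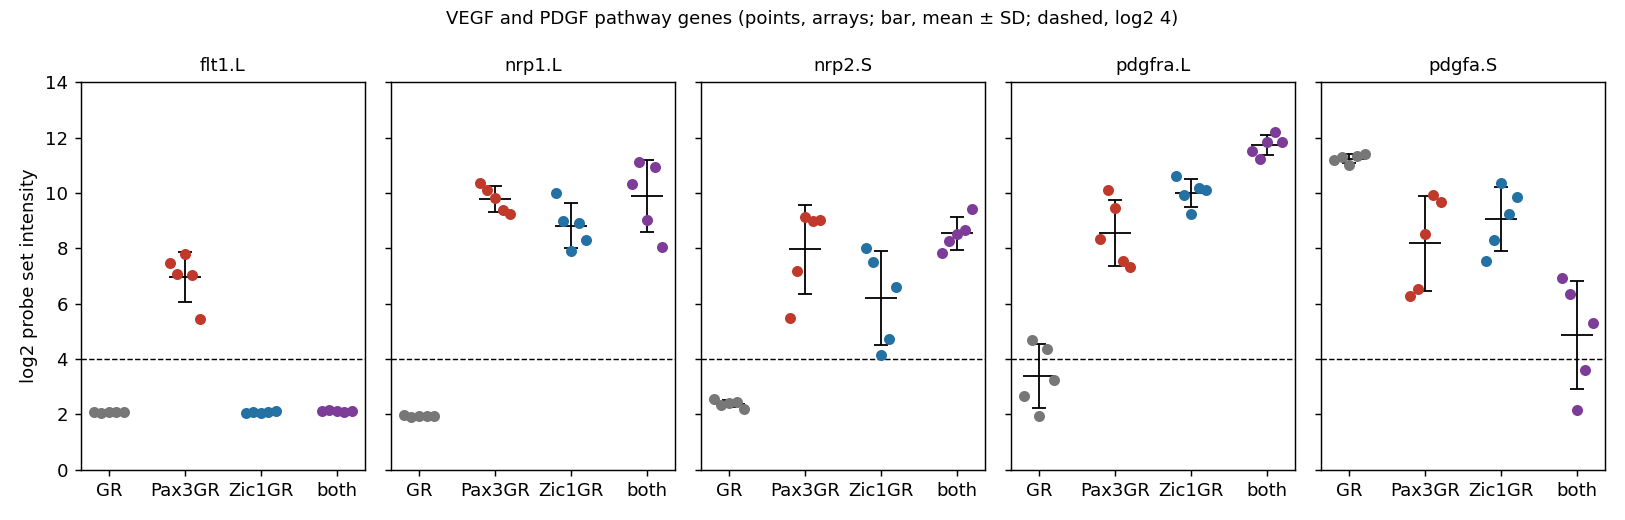
Log2 intensity of flt1.L, nrp1.L, nrp2.S, pdgfra.L and pdgfa.S on the 20 arrays by injection ("both" is the combination). Points are arrays, bars the mean ± SD of 5 arrays and the dashed line log2 4. Detection with Pax3GR alone is seen for flt1.L; both neuropilins remain above 7.8 with the combination.

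Of 18 gene copies of PI3-kinase subunits, lipid phosphatases, Akt and their partners, 13 were tested. With Pax3GR 7 rose and 1 fell, with Zic1GR 3 and 3, and with the combination 4 and 1. Between the combination and Pax3GR 1 rose and 1 fell, and the median difference was -0.14. None of the 18 was Pax3-only, a pattern shown by 0.138% of all 32539 probe sets, so no conclusion is drawn from so few. For pik3r5.S that pattern was required by the rule that chose it. The catalytic partner of pik3r5, pik3cg, was not analysed here.

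The regulatory subunit pik3r1.S of the receptor tyrosine kinase branch read 4.65, 5.39, 3.69, 4.73 and 4.79 with Pax3GR and 7.79 to 8.25 with GR, a fall of 3.40 (limma adjusted p = 6.91e-09). With the combination it read 5.44, 5.70, 5.68, 4.97 and 5.96, above Pax3GR by 0.90 (adjusted p = 0.0298). That call was lost without Pax3GR replicate 3, 4 or 5 or combination replicate 2, 3 or 5 (0.0522 to 0.0835). The other copy, pik3r1.L, had means of 11.08 with GR and 10.78 with Pax3GR and was not called (limma adjusted p = 0.182). Nor was pik3r1.L called between the combination and Pax3GR (difference -0.075, adjusted p = 0.848). The inhibitor pik3ip1.L rose by 0.79 with Pax3GR (0.00396) and fell by 0.70 between Pax3GR and the combination (0.0388). The second call was lost without replicate 3, 4 or 5 of either group (0.0709 to 0.105).

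Named after their values were seen, the regulatory subunits pik3r3.L and pik3r3.S rose by 3.55 and 2.53 with Pax3GR (limma adjusted p = 4.22e-05 and 6.3e-05). Their differences between the combination and Pax3GR, -0.82 and -0.54, were not called (0.388 and 0.455). The Rac exchange factor prex1.L answers in mammals to the same PI3-kinase product and G protein subunits. It was undetected with GR and at least 1.925-fold higher with Pax3GR (limma adjusted p = 0.000151), where 4 arrays detected it. It differed by 0.23 between the combination and Pax3GR (0.794).

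Fructose phosphate metabolism and glucose synthesis had 22 gene copies with a probe set, of which 15 were tested. With Pax3GR 4 rose and 2 fell, with Zic1GR 3 and 5, and with the combination 3 and 5. Between the combination and Pax3GR 1 rose and 2 fell, with a median of -0.20. Bifunctional enzymes set the level of the allosteric inhibitor of fructose-bisphosphatase, and 3 of their genes were tested. The pfkfb1.S probe set was not called (difference 0.13, adjusted p = 0.676). The pfkfb3.S probe set read 9.995, 10.11, 10.73, 10.85 and 10.58 with Pax3GR and 8.99, 9.43, 7.60, 6.54 and 8.01 with the combination, without overlap, a fall of 2.34 (limma adjusted p = 0.00108). The pfkfb4.S probe set read 9.47 to 9.73 with Pax3GR and 11.01, 11.27, 10.58, 9.79 and 10.70 with the combination, also without overlap, a rise of 1.04 (0.017). The aldolase gene aldoc.L fell by 0.55 (0.0294), a call lost without Pax3GR replicate 3, 4 or 5 or combination replicate 2 or 3 (0.0506 to 0.0925). The gluconeogenic pck1.L and pck1.S were below log2 4 on all 20 arrays, and so was the fructokinase gene khk.S.

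Cell types in which the 4 genes are known from other work were looked for by marker lists. On each array only 18949 to 19239 of all 32539 probe sets reached log2 4. The share of all probe sets below it on all arrays of a group was not counted. Counts of undetected probe sets, here and for the leukocyte and muscle lists below, are therefore a description without a background. Of 22 endothelial and blood precursor probe sets, 16 were below log2 4 on all GR arrays, 13 on all Pax3GR arrays, 13 on all Zic1GR arrays and 16 on all combination arrays. The list's mean ran from 3.54 to 4.11 on the Pax3GR arrays and from 3.42 to 3.88 on the combination arrays. The genes etv2.L, tal1.S, pecam1.L and runx1.L were below the level on all 20 arrays. Some others were detected on part of the arrays, among them fli1.S on 1 Pax3GR array (4.10). On Zic1GR arrays lmo2.S was detected on 1 (4.13) and sox18.S on 3 (up to 5.30). Other genes of the list were detected on all GR and all Pax3GR arrays, among them egfl7.L, gata2.L, sox7.L and the apelin receptor gene aplnr.L. Over all probe sets tested, 27.3% rose and 23% fell with Pax3GR. Of this list 6 were tested without flt1.L, of which 1 rose and 3 fell with Pax3GR. The rise was that of aplnr.L, by 4.11 (limma adjusted p = 0.000129), a value named after it was seen. The falls, also named after their values were seen, were of hhex.L, gata2.L and egfl7.L. Means with GR and with Pax3GR were 8.93 and 3.06 for hhex.L (limma adjusted p = 3e-07). They were 13.12 and 10.59 for gata2.L (0.00135), and 9.09 and 7.82 for egfl7.L (0.00132). Of the 6, limma called none between the combination and Pax3GR, with 1 at an unadjusted p under 0.05. Over all probe sets tested, 4.28% were higher and 5.98% lower at that step, so no conclusion is drawn from so few.

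Leukocyte genes, examined because of pik3r5.S, were likewise mostly undetected. Of 17 probe sets, 13 were below log2 4 on all GR arrays, 10 with Pax3GR, 11 with Zic1GR and 10 with the combination, and ptprc.L, mpo.L, itgb2.L and irf8.L were below it on all 20 arrays. The list's mean lay between 3.69 and 3.98 on the Pax3GR arrays and between 3.43 and 3.88 on the combination arrays. Of 6 tested, 2 rose and 2 fell with Pax3GR, against 27.3% and 23% of all probe sets tested. The rises, named after their values were seen, were of lysozyme lyz.L, at least 2.34-fold, and of the phagocyte oxidase gene cybb.L, at least 115-fold (limma adjusted p = 0.000821 and 2.2e-10). The falls were of spib.S, by 2.18, and of cebpa.L, also named after its values were seen, by 7.55 (limma adjusted p = 0.000173 and 6.09e-09). The other copy, cebpa.S, was not called with Pax3GR (difference 1.38, adjusted p = 0.172). With Zic1GR cebpa.S rose by 4.22 (limma adjusted p = 0.000408), a value named after it was seen. With the combination, where the rule required pik3r5.S to be undetected, cybb.L was also detected, at least 151-fold above GR (1.45e-10). In the list 1 rose and 1 fell between the combination and Pax3GR, against 4.28% and 5.98% of all probe sets tested. The invariant chain gene cd74.L fell by 1.35 (limma adjusted p = 0.0104). The Ets factor gene spib.S rose by 1.37 (0.0322), a call that was lost without replicate 3, 4 or 5 of Pax3GR or replicate 1, 3, 4 or 5 of the combination (0.0528 to 0.101). It also missed the threshold with replicate number as a block (0.0523).

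Skeletal muscle genes were examined because of fbp2. Of 25 probe sets, 24 were below log2 4 on all GR arrays, 20 on all Pax3GR arrays, 18 on all Zic1GR arrays and 17 on all combination arrays. The list's mean lay between 2.79 and 3.04 with Pax3GR and between 2.40 and 3.26 with the combination. Without myh6.S, which is Pax3-only and passed the filter through its Pax3GR arrays alone, 5 were tested. With Pax3GR 3 rose and 1 fell, against 27.3% and 23% of all probe sets tested. Between the combination and Pax3GR, 4.28% of all tested were higher and 5.98% lower, and 1 of the 5 fell. That was the myogenic factor gene myf5.L, which read 10.96, 10.35, 9.46, 10.96 and 11.17 with Pax3GR and 8.45, 9.18, 1.96, 9.16 and 1.95 with the combination. It was thus undetected in 2 combination caps and high in 3, and it fell by 4.44 (limma adjusted p = 0.0215). The call was lost without Pax3GR replicate 4 or 5 or combination replicate 3 or 5 (0.0546 to 0.0574). Contractile genes differed among themselves, here named after their values were seen. The myosin light chain gene myl1.L was undetected with GR and was detected on 3 Pax3GR and 3 combination arrays. It was at least 1.34-fold above GR with Pax3GR (limma adjusted p = 0.00775) and at least 1.385-fold with the combination (0.00795). The troponin gene tnni2.S had a mean of 9.65 with GR and 2.04 with Pax3GR. Another, tnnc1.L, was below log2 4 on all GR and all Pax3GR arrays and had a mean of 7.32 with Zic1GR. The myogenin copies myog.L and myog.S were below log2 4 on all 20 arrays. By contrast, the myogenic factor gene myod1.S was detected on all 5 Pax3GR arrays (4.17 to 5.15) and all 5 Zic1GR arrays. It was at least 1.45-fold above GR with Pax3GR (limma adjusted p = 5.46e-05) and at least 2.12-fold with Zic1GR (5.83e-06). It also rose with the combination (0.0014), where 3 arrays detected it. Between the combination and Pax3GR it was not called (difference -0.55, adjusted p = 0.3). It too was named after its values were seen.

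Markers of the cap's own cells were mostly lower with Pax3GR. Of 16 multiciliated genes tested, 16 fell with Pax3GR, 13 with Zic1GR and 12 with the combination, and none rose. Over all probe sets tested, 23%, 22.8% and 20.3% fell in these 3 comparisons. Between the combination and Pax3GR limma called none of the 16, and 0 had an unadjusted p under 0.05, at a median difference of 1.58. Over all probe sets tested, 4.28% were higher and 5.98% lower at that step. The differences ran from -0.42 (tubb4b.S) to 2.83 (foxj1.S, standard error 2.13), both named after their values were seen. The absence of calls therefore does not show equal levels. The tubulin gene tubb4b.L differed by 0.05 (adjusted p = 0.916). Of 19 epidermis genes, 13 fell and 1 rose with Pax3GR, and 4 rose and none fell between the combination and Pax3GR, with a median of 0.66. Over all probe sets tested, 23% fell and 27.3% rose with Pax3GR, and 4.28% rose and 5.98% fell between the combination and Pax3GR. The basal epidermal regulator tp63.S rose by 4.25 (0.000193) and tp63.L by 3.84 (0.00463) at this step, and tfap2a.S by 0.66 (0.0139). Both tp63 copies lay below log2 4 on all Pax3GR arrays, so the sizes of their rises are not exact. Against GR, tp63.S and tp63.L fell with Pax3GR, at least 39.3-fold and 4.48-fold (limma adjusted p = 2.77e-07 and 0.000584). Unlike them, tfap2a.S was not called there (difference 0.20, adjusted p = 0.327). It was above GR with Zic1GR by 0.60 (0.00544) and with the combination by 0.86 (0.000369). The other copy, tfap2a.L, named after its values were seen, rose by 0.67 with Pax3GR (limma adjusted p = 0.00464). Between the combination and Pax3GR tfap2a.L was not called (difference 0.08, adjusted p = 0.843). The part of these cells in the levels of the 4 genes was not tested.

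Chromosomal neighbours were read from the order of genes in Xenopus_laevis_v10.1, up to 5 on each side, for c1orf216.S, pik3r5.S and vegfc.S. They were chosen after the data were seen, and 11 neighbours had a probe set. None was Pax3-only, a pattern shown by 0.138% of all 32539 probe sets. Of 10 tested, limma called none between the combination and Pax3GR, with 3 at an unadjusted p under 0.05. Over all probe sets tested, 4.28% were higher and 5.98% lower at that step, so no conclusion is drawn from so few neighbours. Against GR, 8 of the 10 were called in each comparison. Over all tested, 27.3% rose and 23% fell with Pax3GR, 28.6% and 22.8% with Zic1GR, and 24.6% and 20.3% with the combination. Beside c1orf216.S stood tekt2.S, clspn.S, psmb2.S and ncdn.S, all detected with GR. Beside vegfc.S, asb5.S was below log2 4 on all 20 arrays. Beside pik3r5.S stood cfap52.S, stx8.S, mfsd6l.S, myh10.S, ndel1.S and, next to it, the gene that the table names ntn1.L, a netrin guidance gene.

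The netrin probe set was undetected with GR (2.16 to 2.27) as pik3r5.S was, and read 5.25, 8.14, 8.42, 8.40 and 8.84 with Pax3GR. It read 8.33, 8.31, 6.78, 8.24 and 6.41 with the combination and 6.22 to 7.89 with Zic1GR. It rose by 5.59 with Pax3GR (limma adjusted p = 3.23e-07), and the combination differed from Pax3GR by -0.19 (adjusted p = 0.88). The adjoining genes were both detected with Pax3GR, and ntn1.L alone was detected when Zic1GR was added. For pik3r5.S both properties were set by the rule that chose it. Detection on all 5 combination arrays, as for ntn1.L, was found for 294 of the 547 switched-on probe sets (53.75%).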

How the data were processed

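The deposited values are log2 intensities of 32635 probe sets on Affymetrix Xenopus laevis arrays, 1 array per explant. They were used as the authors deposited them. GCRMA and Partek are listed in the submitters' processing notes with no version and no stated role, and the genome build is not given in the sources used here. Leaving out 96 control probe sets left 32539, of which 15495 carried exactly 1 gene symbol in the array's annotation, 279 several and 16765 none. Between 18949 and 19239 of them reached log2 4 on each array, and the number of arrays limits the precision.

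Probe sets at log2 4 or more on at least 5 of 20 arrays (20519) entered a limma model (version 3.58.1, R 4.3.3) with 1 mean per group, eBayes and Benjamini-Hochberg adjustment over all of them, at a threshold of 0.05. "Rose" and "fell" are used of probe sets past that threshold. All 4 genes described passed the filter only through their Pax3GR arrays. The code was tested on simulated data. For each gene copy in a list the probe set of highest mean was used, and the 4 genes were left out of the lists. Pax3-only probe sets (flt1.L, myh6.S) were left out of the counts of calls in lists, a choice made after the data were seen.

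The rule for naming genes took the 4 genes, their other copies and family members, and the 3 named probe sets most like each. It also took up to 10 other Pax3-only probe sets by Pax3GR mean, the 3 on each side of the limit, and up to 3 called members of each list for the combination against Pax3GR (with none called, the member with the highest mean), with pax3 and zic1. Genes outside it are marked as chosen after their values were seen, and some list members are named only as detected, undetected or not called. The 4 genes, the lists and the rule were chosen with earlier results of these data known. The comparisons of Pax3GR, Zic1GR and the combination with GR share the GR arrays, and that of the combination with Pax3GR shares arrays with them.

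Alternatives covered the filter, scaling, low values, variance model, array weights, the groups in the fit, a replicate block, other detection limits and each array left out in turn. Promoter motifs were not analysed here.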

Additional observations from a re-analysis of the deposited data

Results flagged for a closer look

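Single arrays that stood apart from the other 4 of their group were looked for in 80 groups, 4 for each of 20 probe sets, and 7 were found. Chance gives about 1 in 20 groups.

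Among the 4 genes, 2 such values came from fbp2. Zic1GR replicate 5 was the highest of its group at 3.99, with the next at 2.82. Combination replicate 1 was the highest of its group at 3.46, with the next at 2.86. Both lay below log2 4, where values have no order.

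The relative fbp1.L was lowest on combination replicate 4, at 12.78, with the next at 13.48. The neighbour ntn1.L was lowest on Pax3GR replicate 1, at 5.25, with the next at 8.14. The epidermal gene tp63.S was lowest on GR replicate 3, at 7.28, with the next at 9.52. The remaining values lay below log2 4, with six6.L highest on combination replicate 2 at 1.84 and pcsk5.S highest on Zic1GR replicate 1 at 2.63.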

How the results depend on the processing

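All 4 genes kept the Pax3-only pattern at detection limits of log2 5 and 6 and without any single array. Under quantile scaling and with centred arrays 3 kept it, fbp2 missing it by 1 Zic1GR array at 4.02 and 4.04. At a limit of log2 3 the pattern held for 0 of them, because each has an array outside Pax3GR above log2 3. With values below log2 4 set to 4, Pax3GR exceeded the combination by 4.78 for c1orf216.S, 4.24 for fbp2 and 4.40 for vegfc.S. Leaving out arrays gave 5.78 to 6.34 (c1orf216.S), 5.12 to 5.56 (fbp2), 5.91 to 6.60 (pik3r5.S) and 5.72 to 6.28 (vegfc.S).

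The Pax3-only set grew from 45 to 148 when 4 of 5 arrays sufficed. It grew to 146 without Pax3GR replicates 1 and 2, an alternative chosen after seeing the data, and was 45 to 66 without single arrays. The 53 switched-on probe sets undetected with the combination became 179 in each of the first 2 cases, and 53 to 77.

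Between the combination and Pax3GR, limma called 4914 probe sets with array weights and 796 with the 2 groups alone, against 2106. Without single arrays it called 1226 to 3038. Against GR the same ranges were 9382 to 10768 (Pax3GR), 9132 to 11140 (Zic1GR) and 7938 to 9783 (combination). The cause of these changes was not tested, beyond the fewer arrays of the smaller fits. Replicate numbers did not pair the samples: same-numbered arrays of different groups correlated from -0.382 to 0.466, and 6 of 30 matched their own number best. With a replicate block, limma's calls numbered 10264, 10513 and 9136 against GR and 1987 between the combination and Pax3GR. Of 252 comparisons of single relatives, list genes and neighbours, 64 changed sides of the threshold in some alternative and 0 reversed. Of 480 alternative values of list counts 68 moved by more than 1.5 times.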
